A study of Mus musculus with 84 samples.

Results

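The apelin, adrenomedullin and sphingosine 1-phosphate (S1P) receptor systems were followed through 8 genes, taken by symbol from the table of 20308 genes: Apln, Aplnr, Adm, Calcrl, Ramp2, Ramp3, S1pr1 and S1pr3. All 8 were in the table, and their values were read in each of the 84 cells of the series. The cells came from the aorta-gonad-mesonephros (AGM) of mouse embryos at E11.5, the trunk region around the dorsal aorta and the mesonephros. They were sorted as CD31+CD144+CD41-CD45-, that is, for 2 endothelial surface proteins and against a megakaryocyte and a leukocyte protein. Single cells are named by the number in their labels. The labels give no strain, genotype, treatment or embryo. The 84 cells are therefore 1 group that counts as 1 sample, no test between conditions was possible, and every value is a description of these cells.

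Apelin is a secreted peptide that acts on the G protein-coupled receptor encoded by Aplnr, and in growing vessels the peptide is known from sprouting tips and the receptor from veins and the vessels behind the tips. Adrenomedullin, the product of Adm, acts on the calcitonin receptor-like receptor encoded by Calcrl, which reaches the cell surface only with a small partner protein of the Ramp family. Ramp2 and Ramp3 make Calcrl an adrenomedullin receptor, whereas Ramp1 makes it a receptor for calcitonin gene-related peptide. Loss of Adm, Calcrl or Ramp2 in the mouse is known to cause edema and vascular defects before birth. S1P is a lipid carried in blood, and its receptor S1pr1 stabilises endothelial junctions and restrains sprouting, while S1pr3 is also known from smooth muscle and connective tissue.

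Levels are given as TPM, a share of each cell's transcripts that is corrected for transcript length, so levels of different genes can be set side by side. Detection of a gene means a TPM of at least 1. The cells had between 3334 and 10073 detected genes, with a median of 6978. The read depth behind a TPM value is unknown, and a value of 0 can be a missed transcript. Transcripts mostly followed the sort, with Pecam1 (CD31) in 80 cells, Cdh5 (CD144) in 82, Itga2b (CD41) in 7 and Ptprc (CD45) in 0. Itga2b reached 686 TPM, however. A median of 15 of 17 pan-endothelial genes reached TPM 10 per cell, and 80 cells had at least 3 of them. Cells 13, 23, 39 and 65 had 1 or 0. In addition, 32 cells held at least 3 of 11 mesenchyme genes (fibrillar collagens and connective tissue regulators) at TPM 10, and they are called mesenchyme-marked below. The remaining cells number 52 and include cell 39. The same count was 1 cell for smooth muscle, 2 for erythroid, 0 for macrophage, 3 for platelet, 2 for epithelial and 4 for neural genes. All libraries carried different index pairs (84 of 84).

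Of the receptor genes, Calcrl, Ramp2, S1pr1 and Aplnr were widespread, while S1pr3, Ramp3 and the ligands Apln and Adm were found in fewer cells. Calcrl was detected in 84 of 84 cells (exact 95% Clopper-Pearson interval 95.7% to 100%), Ramp2 in 79 (94.0%, 86.7% to 98.0%), S1pr1 in 75 (89.3%, 80.6% to 94.98%) and Aplnr in 73 (86.9%, 77.8% to 93.3%). Apln was detected in 30 cells (35.7%, 25.6% to 46.9%), S1pr3 in 18 (21.4%, 13.2% to 31.7%), Adm in 17 (20.2%, 12.3% to 30.4%) and Ramp3 in 9 (10.7%, 5.02% to 19.4%). These intervals cover counting error over cells only. Of the 84 cells, 52 held all 4 of Aplnr, Calcrl, Ramp2 and S1pr1 at TPM 10, a further 20 held 3 of them, and 2 held 0. Both of the latter were mesenchyme-marked.

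**Figure D1:**
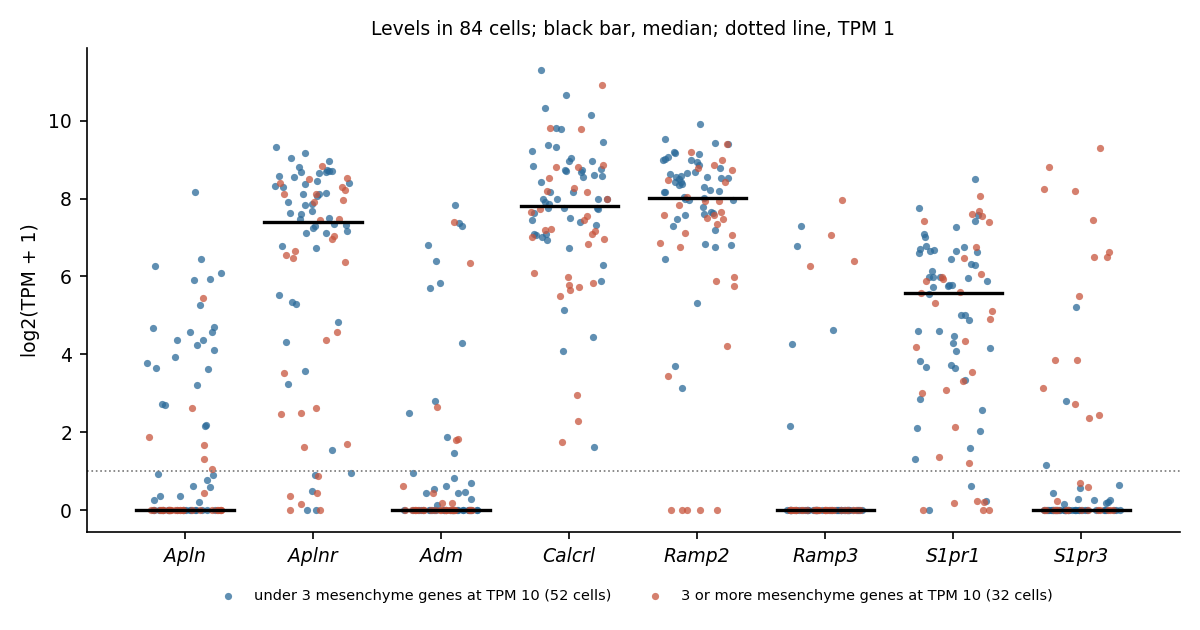
Level of each gene in 84 cells as log2(TPM + 1), 1 point per cell, with the median as a black bar and TPM 1 as a dotted line; points are spread sideways at random and coloured red in mesenchyme-marked cells. Calcrl, Ramp2, Aplnr and S1pr1 have medians above TPM 46, the medians of the other 4 genes are 0, and most S1pr3 points above TPM 1 are mesenchyme-marked cells.

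By level, Ramp2 had the highest median (258.7 TPM, quartiles 143 and 405, highest 960), followed by Calcrl (224 TPM, quartiles 127 and 426, range 2.08 to 2529), Aplnr (168.05 TPM, quartiles 19.4 and 315, highest 641) and S1pr1 (46.2 TPM, quartiles 9.03 and 97.0, highest 359). The quartile ranges of the first 3 overlapped, and neither of the leading genes stood above the other: Ramp2 exceeded Calcrl in 39 cells and Calcrl exceeded Ramp2 in 45. Ramp2 was above Aplnr in 55 cells, and Aplnr was above S1pr1 in 64. Among the 12318 genes detected in at least 5 cells, 4.81% had a higher median than Ramp2, 5.52% than Calcrl, 7.02% than Aplnr and 18.1% than S1pr1. Over the 7 sets of 12 cells that share a second index, the median ran from 180 to 356 TPM for Ramp2, from 128 to 300 for Calcrl, from 80.7 to 261 for Aplnr and from 4.78 to 70.2 for S1pr1. No set lacked any of these 4 genes, and each was found in at least 8 of the 12 cells of every set.

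Apln (gene ID 30878, chromosome X, 48025146 to 48034853) was mostly low where found. In its 30 cells the median was 17.1 TPM, with 20 cells at TPM 10 or more and 1 cell above TPM 100 (cell 36, at 288 TPM). Cell 36 held 419 TPM of Aplnr, so the cell with the most ligand transcript also held the receptor. By second index, Apln was found in 2 to 7 cells of each set. The receptor gene Aplnr (gene ID 23796, chromosome 2, 85136360 to 85139923) was detected in 29 of the 30 Apln cells and in 44 of the 54 others. Independent detection would give 26.1 cells with both genes, against 29 seen. The median of Aplnr was 235 TPM in Apln cells and 107 TPM in the others, whose values ran from 0 to 577. Every one of the 20 cells with Apln at TPM 10 held Aplnr, at 138 to 641 TPM, while 15.7 such cells would be given by independent detection at that level. The ranges overlapped, since many cells without Apln were as high in Aplnr. Spearman's rho of the 2 genes over cells was 0.36, and 0.40 after the number of detected genes was regressed from the ranks. It was 0.38 without mesenchyme-marked cells. For scale, the middle 95% of 10074 genes had a rho with Aplnr between -0.26 and 0.29. The points are cells of 1 sample, so no p is given. The median number of detected genes was 7145 in Apln cells against 6884 elsewhere. Of the 30 Apln cells 6 were mesenchyme-marked, against 26 of the 54 others. The median of Aplnr was 90.7 TPM in mesenchyme-marked cells and 199 in the rest, and the part of this in the Aplnr difference was not tested. All 30 Apln cells also held Calcrl, Ramp2 and S1pr1, with medians of 253, 347 and 28.7 TPM, against 199, 236 and 54.1 TPM in the other 54. S1pr1 was thus the 1 common receptor gene with a lower median where Apln was present, and its rho with Apln was 0.04.

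For apelin, then, 29 cells held transcripts of both ligand and receptor, and 44 held the receptor alone. A single cell held Apln without Aplnr, cell 14, with 5.15 TPM of Apln and 0 of Aplnr, which had 6 mesenchyme genes at TPM 10. Of the 11 genes of an apelin list drawn up beside the members, 7 were detected in at least 5 cells. Over the whole table, 12318 of 20308 genes were, so this count was near the share of all genes. Gnai2 and Gnai3, subunits of the inhibitory G protein through which the receptor signals, were found in 84 and 82 cells with medians of 171 and 160 TPM. The arrestin genes Arrb1 and Arrb2 were found in 38 and 26 cells. Furin, a protease that can cut the apelin precursor, was found in 43 cells at no more than 20.2 TPM. Apela, the second ligand of the receptor, was not analysed here.

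The start of Apln and that of S1pr3 are shown because these members differed in opposite directions in the results that follow: Apln was scarcer and S1pr3 more frequent in mesenchyme-marked cells. Windows of 250 bases before a start came from RefSeq on GRCm38.p6, which had one for 5 of the 8 members. Ramp2 and Aplnr, also lower in mesenchyme-marked cells, had none. Each was searched on both strands for CAGGAAG, a form of the binding sequence of ETS factors, a family that includes endothelial regulators. The motif was chosen after results were known. It was present in the windows of Apln and Calcrl and not in those of Adm, Ramp3 and S1pr3, and 10.8% of 32851 windows of this length held it. The windows of Calcrl and Ramp3 lie partly within the annotated genes and are not shown. ACGTG, the core of hypoxia response elements, was in none of the 5 windows and in 16.6% of all. Such matches describe letters, not sites in use. Capitals mark the CAGGAAG match, which reads as its reverse complement on the strand shown.

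Apln, chrX:48034854-48035103, minus strand, 250 bases before the start: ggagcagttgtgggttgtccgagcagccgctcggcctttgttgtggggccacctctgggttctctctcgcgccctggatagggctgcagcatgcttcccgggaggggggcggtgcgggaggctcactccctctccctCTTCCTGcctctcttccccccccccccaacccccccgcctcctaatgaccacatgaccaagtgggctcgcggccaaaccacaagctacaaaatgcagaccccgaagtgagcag
S1pr3, chr13:51408368-51408617, plus strand, 250 bases before the start: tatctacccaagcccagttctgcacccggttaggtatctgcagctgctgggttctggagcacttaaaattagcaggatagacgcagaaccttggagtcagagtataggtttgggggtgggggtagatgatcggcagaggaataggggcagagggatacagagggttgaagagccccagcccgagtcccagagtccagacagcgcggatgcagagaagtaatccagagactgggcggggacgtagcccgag

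Adm (gene ID 11535, chromosome 7, 110627657 to 110629820) was found in 17 cells, at TPM 10 in 10 of them, with a median of 51.4 TPM in the 17. The highest levels were 229 TPM in cell 22, 167.7 in cell 29, 164 in cell 77, 157 in cell 21 and 110 in cell 30. These 5 cells all held Calcrl, at 127 to 497 TPM, and Ramp2, at 108 to 510 TPM. By second index Adm was found in 1 to 6 cells of a set. All 17 Adm cells held Calcrl and 16 held Ramp2, which independent detection would give in 17 and 15.99 cells. The receptor genes are so widespread that co-detection had little room to differ. The level of Calcrl was a median of 252 TPM in Adm cells and 212 in the others, with ranges of 34.2 to 892 and 2.08 to 2529, so the groups overlapped. Spearman's rho was 0.05 for Adm with Calcrl and 0.15 for Adm with Ramp2, inside the range that holds the middle 95% of all genes for Adm (-0.19 to 0.24). Adm and Apln were found together in 10 cells, where 6.07 would follow from independent detection, and at TPM 10 in 6 cells against 2.38. Their rho of 0.235 was near the upper end of the same range for Adm (0.241) but inside it, and inside that for Apln (-0.20 to 0.30). Together 37 cells held transcripts of at least 1 of the 2 ligands and 47 of neither.

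**Figure D2:**
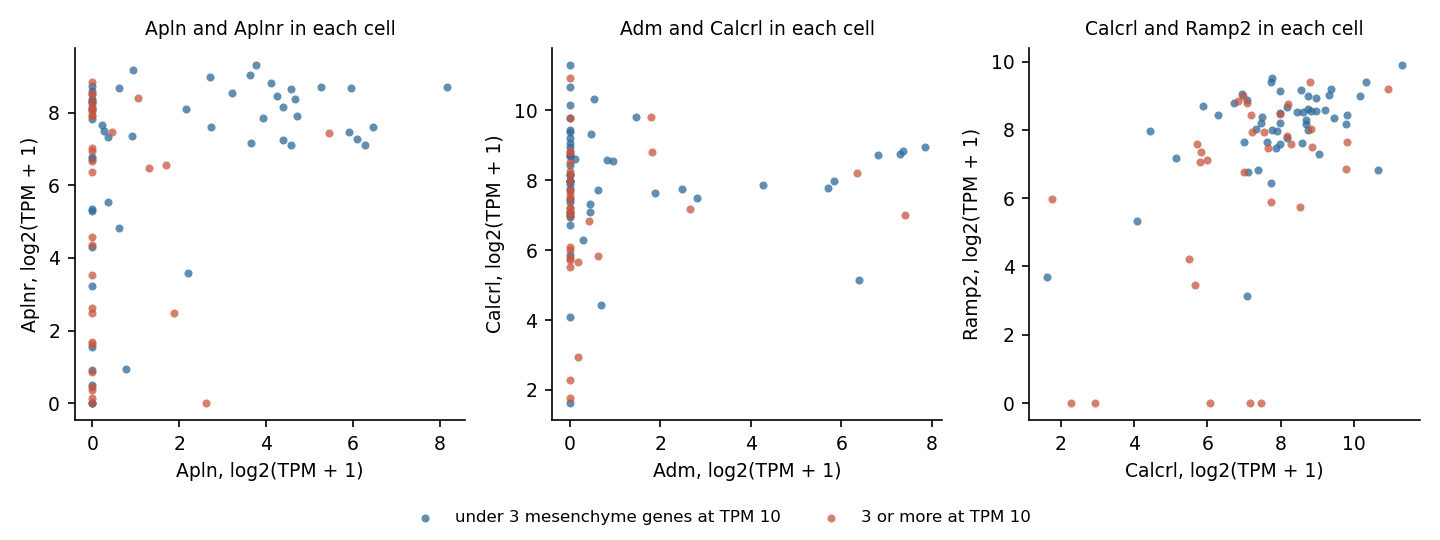
Each point is 1 of 84 cells; both axes give log2(TPM + 1) for Apln and Aplnr, Adm and Calcrl, and Calcrl and Ramp2. Cells with high Apln lie at high Aplnr, Adm shows no such relation with Calcrl (rho 0.05), and the 5 cells at 0 for Ramp2 are all mesenchyme-marked.

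Of the partners of Calcrl (gene ID 54598, chromosome 2, 84330626 to 84425405), Ramp2 was the common one. It was found in 79 cells (gene ID 54409, chromosome 11, 101246334 to 101248250), against 9 for Ramp3 (gene ID 56089, chromosome 11, 6658506 to 6677478) and 1 for Ramp1, at 2.37 TPM. In the 79 cells that held Calcrl and Ramp2 the ratio of Ramp2 to Calcrl was 0.983 in the median, 0.593 and 2.22 at the quartiles, and between 0.0584 and 26.3 overall. Transcripts of receptor and partner were thus at like levels in the median cell, with wide scatter. Their rho over cells was 0.46, and 0.38 without mesenchyme-marked cells. Such values were not particular to this pair. Ramp2 had a rho of 0.48 with Aplnr, and 0.36 without mesenchyme-marked cells. Calcrl had 0.43 with Aplnr and 0.29 with S1pr1, and 0.22 and 0.36 without those cells. All 5 cells without Ramp2 were mesenchyme-marked, and they had between 0 and 10 of the 17 pan-endothelial genes at TPM 10. Calcrl was still present in these cells, at 3.87 TPM in cell 23, 6.71 in cell 13, 66.6 in cell 65, 143 in cell 78 and 174 in cell 54. Of the 5, cells 23 and 65 held Ramp3, at 133 and 82.7 TPM, and the other 3 held no Ramp gene at TPM 1.

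Ramp3 was rare but not low. Its 9 values were 247 TPM in cell 75, 156 in cell 41, 133 in cell 23, 108 in cell 44, 82.7 in cell 65, 76.5 in cell 38, 23.6 in cell 77, 18.1 in cell 4 and 3.5 in cell 30. In cells 75, 41, 23, 65 and 38 Ramp3 exceeded Ramp2. The median of Ramp2 was 62.5 TPM in the 9 Ramp3 cells and 285 TPM in the other 75, and that of Calcrl was 105 and 238 TPM. Cells 65, 23 and 38 had only 0, 1 and 9 of the 17 pan-endothelial genes at TPM 10. Cells 75 and 41 had 12 and 13, with Ramp2 at 62.5 and 7.79 TPM and Calcrl at 2.38 and 133. Cells 44, 77, 4 and 30, with 15 to 17, held Ramp2 at 193 to 441 TPM and Calcrl at 105 to 455. The part of endothelial content in the lower medians was not tested. Co-detection of Ramp3 and Ramp2, in 7 cells, compares with 8.46 under independent detection. At TPM 10 it was 4 cells against 7.33, with Ramp2 in 50% of the Ramp3 cells and 96.1% of the others. Of the 9 Ramp3 cells 4 were mesenchyme-marked, where the whole set had 32 of 84. A pseudogene overlaps Ramp3 in the annotation and non-coding RNAs overlap Adm and S1pr3, and the sources used here do not state strand-aware counting, so reads of such partners cannot be told apart.

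Of the 16 genes on the adrenomedullin list, 12 were detected in at least 5 cells, against 12318 of all 20308 genes. Gnas, the stimulatory G protein subunit downstream of the receptor, was detected in 84 of 84 cells, its median being 1170 TPM. Pam, the enzyme that amidates adrenomedullin, was found in 81 cells at a median of 17.3 TPM and in 16 of the 17 Adm cells. The scavenger receptor gene Ackr3, whose product can also take up adrenomedullin, was found in 31 cells, 11 of them Adm cells, where independent detection gives 6.27. At TPM 10 both genes were found in 4 cells, against 2.26. The median of Ackr3 was 2.08 TPM in Adm cells and 0 in the others, with overlapping ranges (0 to 221 and 0 to 232). Spearman's rho of Adm and Ackr3 was 0.15, inside the range given above for Adm (-0.19 to 0.24). Other ligands of the family were scarce, with Calca in 5 cells, Adm2 in 1 and Calcb in 0, and the calcitonin receptor gene Calcr was found in 1 cell. Adcy4, an adenylyl cyclase, was found in 52 cells and the protein kinase A subunit gene Prkaca in 70.

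S1pr1 (gene ID 13609, chromosome 3, 115710433 to 115715055) reached TPM 10 in 62 cells and TPM 100 in 19. The 9 cells without it had a median of 3 pan-endothelial genes at TPM 10, and 6 of them were mesenchyme-marked. S1pr2, the S1P receptor that acts against S1pr1 on the cytoskeleton, was found in 28 cells with a median of 19.1 TPM there. S1pr4 was found in 24 cells, at TPM 10 in only 2, and S1pr5 in 3 cells at no more than 1.45 TPM. At least 1 of S1pr1, S1pr2 and S1pr3 was found in 82 cells and all 3 in 6. On the supply side, the S1P exporter gene Spns2 was found in 44 cells, with a median of 43.7 TPM there. The kinase gene Sphk2 was found in 24 cells and Sphk1 in 2. S1pr1 was detected in 42 of the 44 Spns2 cells and 33 of the 40 others, with medians of 52.99 and 31.2 TPM and overlapping ranges (0 to 359 and 0 to 266). With both genes read at TPM 10, S1pr1 was in 76.5% of Spns2 cells and 72% of the others. Only 7 of the 44 Spns2 cells were mesenchyme-marked, out of 32 such cells in the series. The part of this in the S1pr1 difference was not tested. Of the genes for the removal of S1P, the lyase gene Sgpl1 was found in 54 cells and the lipid phosphatase gene Ppap2b (now Plpp3) in 80, with a median level of 53.05 TPM. The S1P phosphatase genes Sgpp1 and Sgpp2 were found in 16 and 25 cells. Apom, the S1P carrier gene, was found in 0 cells, for which the interval allows up to 4.30%. Of the 21 genes on the S1P list, 17 were detected in at least 5 cells, against 12318 of all 20308 genes.

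S1pr3 (gene ID 13610, chromosome 13, 51408618 to 51422797) differed from the other receptors in the cells that held it. It was detected in 15 of 32 mesenchyme-marked cells (46.9%, 29.1% to 65.3%) and in 3 of the other 52 (5.77%, 1.21% to 15.9%). The 9 highest values, 630 TPM in cell 84, 447 in cell 48, 302 in cell 56, 294 in cell 13, 174 in cell 14, 97.8 in cell 72, 90.0 in cell 68, 89.5 in cell 38 and 44.1 in cell 16, were all in mesenchyme-marked cells. In the 3 cells outside, the highest was 35.8 TPM. By number of mesenchyme genes at TPM 10, S1pr3 was found in 0 of 40 cells with 0 such genes, 3 of 12 with 1 or 2, 2 of 11 with 3 or 4, and 13 of 21 with 5 or more. Most of these cells also carried the endothelial program: of the 18 S1pr3 cells, 14 had both Pecam1 and Cdh5 at TPM 10, and the median was 13 of 17 pan-endothelial genes, with a range from 1 to 17. Of the 13 cells with at least 5 mesenchyme and at least 12 pan-endothelial genes, 7 held S1pr3. The median number of detected genes was 7009 in S1pr3 cells, against 6978 in the series. Whether a capture site held more than 1 cell was not tested.

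**Figure D3:**
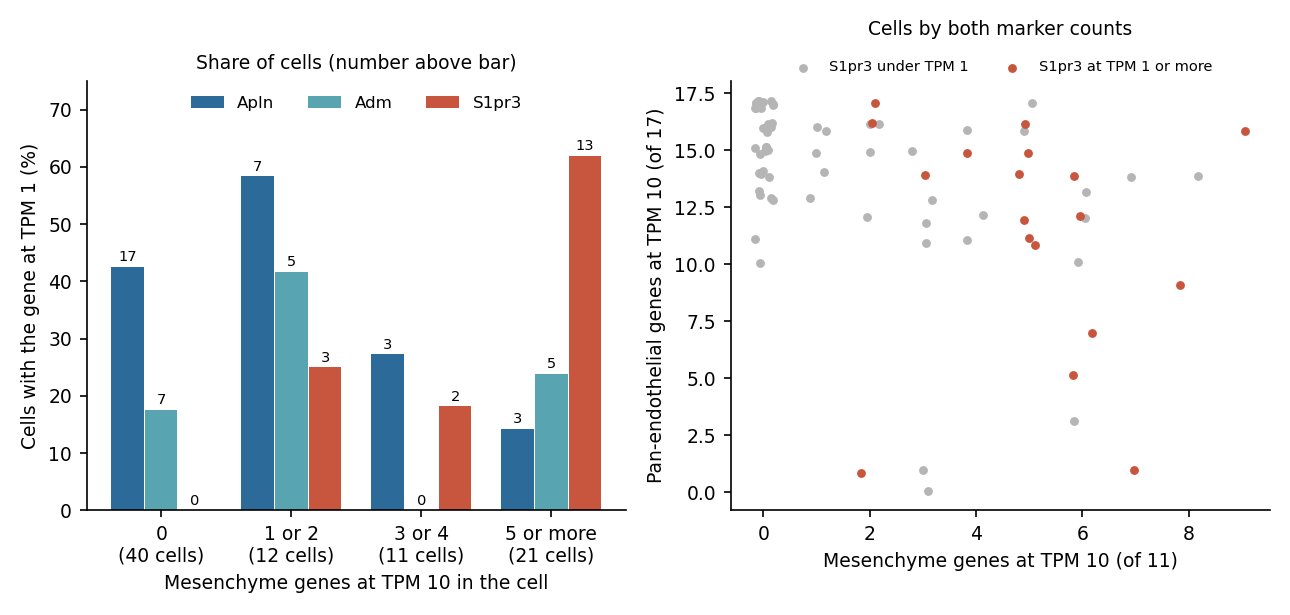
Left, percent of cells with Apln, Adm or S1pr3 at TPM 1 by the number of mesenchyme genes at TPM 10 in the cell, with the number of cells holding the gene above each bar. Right, each cell by its counts of mesenchyme and pan-endothelial genes at TPM 10, spread slightly at random, with S1pr3 cells in red: S1pr3 is in 0 of 40 cells with 0 mesenchyme genes and in 13 of 21 with 5 or more, several of them high in endothelial genes.

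Mesenchyme-marked cells also differed in the other members. Differences between sets of cells are given on the log2(TPM + 1) scale, as the mean in the marked cells minus that in the others, a scale that understates changes of low genes. S1pr3 was 2.49 log2 units higher, and 1 of 8 members was higher by over 1 unit, against 3.68% of the 12318 genes detected in at least 5 cells. Ramp2 (-1.79), Apln (-1.72) and Aplnr (-1.65) were lower by over 1 unit, 3 of 8 members against 7.02% of all genes. Calcrl (-0.93), S1pr1 (-0.79), Adm (-0.59) and Ramp3 (0.38) stayed within 1 unit, and the median over all genes was -0.08. The median of the 8 members was -0.86. With a pseudocount of 10 Apln was at -0.71. With at least 5 mesenchyme genes required, a setting chosen after seeing the data, S1pr1 was at 0.26. That setting counted the cells with 3 or 4 mesenchyme genes among the others. S1pr1 had a median of 7.51 TPM in those 11 cells, against 53.7 with 0 such genes, 42.7 with 1 or 2 and 47.6 with 5 or more. Median TPM was 177 in marked and 329 in other cells for Ramp2, 90.7 and 199 for Aplnr, 147 and 253 for Calcrl and 31.2 and 53.6 for S1pr1, and the ranges overlapped for each. Apln was detected in 6 of the 32 marked cells (18.8%, 7.21% to 36.4%) and in 24 of the other 52 (46.2%, 32.2% to 60.5%). Endothelial genes moved with these differences, with a median of 12 of 17 at TPM 10 in marked cells and 15.5 in the others, as did detected genes (6762 and 7049). Their part in the result was not tested. Among the 13 cells that kept 12 or more pan-endothelial genes beside 5 or more mesenchyme genes, the receptors were near the level of the series, with medians of 240 TPM for Aplnr, 246 for Ramp2, 186 for Calcrl and 66.2 for S1pr1, while Apln was found in 1 of 13.

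The series title concerns arterial endothelium. In the 30 cells with Gja4, Gja5, Dll4 or Hey2 at TPM 10, 0 members were higher and 0 lower by over 1 log2 unit, against 4.43% and 0.609% of all genes. Ramp2 came closest at 0.99, all 30 cells holding it against 49 of 54 others, and was at 0.34 without mesenchyme-marked cells. Its medians were near one another, at 255 and 258.7 TPM. Apln was found in 9 of the 30 cells and in 21 of the other 54, Aplnr in 28 and 45, and S1pr1 in 29 and 46. The difference for Aplnr was 0.36 over all cells and -0.31 without mesenchyme-marked cells. Cells with at least 3 of 6 tip or angiogenic genes at TPM 10 numbered 44. S1pr1 (1.34) and Ramp2 (1.01) were higher there by over 1 unit, 2 of 8 members against 7.81% of all genes, and 0 were lower, against 0.723%. Apln, itself known from tip cells, was found in 20 of these 44 cells and in 10 of the other 40, a difference of 0.89 log2 units. The 44 cells had more detected genes than the others (7244 and 6692), held fewer mesenchyme-marked cells (13, against 19 of the other 40) and, without mesenchyme-marked cells, showed 0 members past 1 unit, with S1pr1 at 0.70 and Ramp2 at 0.11. With a pseudocount of 10 the number was also 0.

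Prox1 is the master regulator of lymphatic endothelium, a lineage in which Adm signalling through Calcrl and Ramp2 is known to be needed. In the 36 cells with Prox1 at TPM 10, Ramp2 was 1.12 log2 units higher, 1 of 8 members against 4.66% of all genes, and 0 members were lower, against 1.16%. With a pseudocount of 10, 0 members were past 1 unit. Calcrl was at 0.76, S1pr1 at 0.89 and Aplnr at -0.60. Ramp3 was at -0.88, found in 1 of the 36 cells and 8 of the other 48. All 36 cells held Calcrl, Ramp2 and S1pr1. Prox1 cells were mesenchyme-marked less often (11 of 36) than the rest (21 of 48), and the picture changed when such cells were left out. In the 25 Prox1 cells and 27 others that remained, Ramp2 was 0.40 and Calcrl 0.27 higher, 0 members were higher by over 1 unit, against 5.41% of all genes, and Aplnr was 1.55 units lower (-1.55), 1 of 8 members against 3.08%. Aplnr was detected in 20 of those 25 Prox1 cells, from 0 to 577 TPM with a median of 152, and in all 27 others, from 1.91 to 641 TPM with a median of 265. The 5 cells without Aplnr lay on the Prox1 side, though the ranges overlapped over most of their span. Detected genes per cell were 6961 and 7058.

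**Figure D4:**
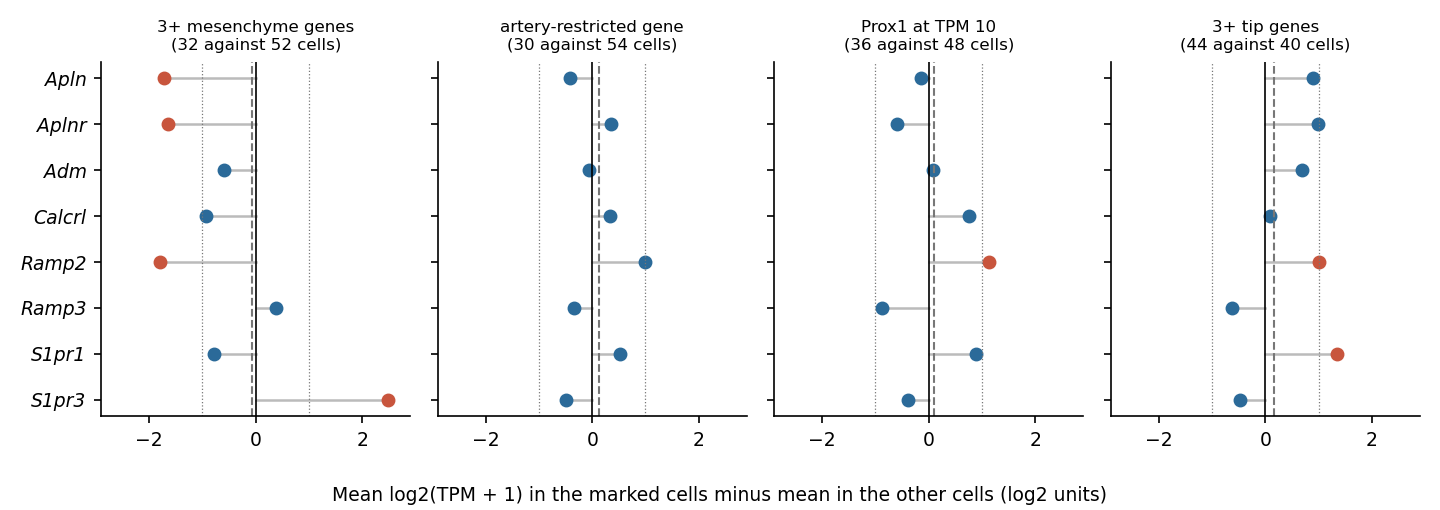
Difference of each gene in log2(TPM + 1) between cells marked by a gene set and all other cells, for 4 sets; red points lie past 1 log2 unit (dotted lines), and the dashed line is the median of 12318 genes. S1pr3 stands to the right and Apln, Aplnr and Ramp2 to the left for mesenchyme genes, and no point is past 1 unit for artery-restricted genes.

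Which genes varied with each member was read from Spearman's rho over the 84 cells, among 10075 genes detected in at least 17 cells. Ramp3 was too rare for this. The points are cells of 1 sample, each a library of its own with unknown depth, so rho is a description. Aplnr was closest to Cd93 (0.66), Vamp5 (0.66), the sialomucin Emcn (0.65), the VEGF receptor Flt1 (0.58) and Pcdh17 (0.56). Calcrl was closest to the angiopoietin receptor Tek (0.60), Entpd1 (0.55), Cd59b (0.53), Vwf (0.53) and Ecscr (0.52). Ramp2 was closest to Egfl7 (0.57), Gimap6, S100a16, Vamp5 and Kank3 (0.53 each). S1pr1 was closest to the 2 genes of the positive sort, Pecam1 (0.51) and Cdh5 (0.48), followed by Slc6a6 (0.48), Ctsz (0.45) and Clptm1 (0.44). Apln was closest to Gimap5 (0.50), Pik3r6 (0.49), 2200002D01Rik (0.48), Emcn (0.47) and Lrrc8c (0.46). Adm had weaker neighbours, led by D3Ertd254e (0.44), BC049715 and Camkk2 (0.41 each), Ccl9 (0.39) and Arl15 (0.38), and with 17 cells above TPM 1 these are not findings.

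S1pr3 was closest to the collagen gene Col1a1 (0.57), Crabp2 (0.57), Meis1 (0.53), Tmem132c (0.52) and Gas1 (0.52), and farthest from Rhoj (-0.44), Crip2 (-0.42) and Tmsb4x (-0.41). Genes of this group stood at the other end for Ramp2 and Apln: Crabp2 was among the 3 lowest for Ramp2 (-0.50) and Apln (-0.45), Tmem132c for Ramp2 (-0.43) and Gas1 for Apln (-0.42), as were H3f3b (-0.49) for Ramp2 and Gpc3 (-0.41) for Apln. For Aplnr the lowest were Igsf3 (-0.47), Tmod2 (-0.47) and Nnat (-0.45), and for Calcrl they were Pkm (-0.47), Dclk1 and Arfrp1 (-0.42 each). For S1pr1 they were Coq7 (-0.36), Slc25a4 (-0.35) and Rsl1d1 (-0.34), and for Adm Fam109a (-0.38), Brd2 (-0.35) and Vps28 (-0.34).

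Leaving out mesenchyme-marked cells moved some of these values more than others. The 5 highest neighbours then had a rho of 0.53 to 0.70 for Aplnr, 0.41 to 0.57 for S1pr1, 0.40 to 0.53 for Adm, 0.39 to 0.54 for Apln, 0.33 to 0.45 for S1pr3, 0.29 to 0.63 for Calcrl and 0.27 to 0.48 for Ramp2. Smaller by over 1.5 times were Gimap6 (0.33), S100a16 (0.27) and H3f3b (-0.28) for Ramp2, and Cd59b (0.29) and Dclk1 (-0.21) for Calcrl. The same held for Gpc3 (-0.16) for Apln, and for Meis1 (0.35), Tmem132c (0.33), Rhoj (-0.17) and Tmsb4x (-0.12) for S1pr3.

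Set beside whole gene lists, the 4 common receptor genes followed the pan-endothelial genes. The median rho with 17 such genes was 0.37 for Ramp2, 0.33 for Aplnr, 0.32 for Calcrl and 0.29 for S1pr1, with all 17 above 0 in each case, against medians over all genes between -0.01 and 0.03. Without mesenchyme-marked cells the median was 0.20 for Calcrl and between 0.28 and 0.29 for the other 3. The ligands were also positive over all cells, with a median of 0.25 for Apln (all 17 above 0) and 0.14 for Adm (16 above 0). Without mesenchyme-marked cells Apln was at 0.15 and Adm at 0.13. For S1pr3 the median over all cells was -0.20, with 0 of 17 above 0. Its median rho with 8 mesenchyme genes was 0.45, with all 8 above 0. Without mesenchyme-marked cells these values of S1pr3 were -0.05 and 0.24. Adm and Apln are known to be induced by low oxygen, but neither followed the 17 hypoxia response genes that could be used, with medians of -0.01 and -0.03. The 1 gene of that list with a high rho for Adm was Pdk1 (0.35). Vegfa was negative for Aplnr (-0.41) and Calcrl (-0.34). Apln had a median rho of 0.15 with 5 tip or angiogenic genes, which was 0.087 with the number of detected genes regressed out and 0.038 without mesenchyme-marked cells. Aplnr, often used as a venous gene, had a median of 0.11 with 8 venous genes, led by Emcn (0.65), while Nr2f2 was at -0.09. Without mesenchyme-marked cells that median was 0.027. S1pr1, a known target of the flow-induced factor Klf2, had a rho of 0.08 with Klf2 and a median of 0.14 with 5 flow response genes, and for Calcrl that median was 0.29.

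**Figure D5:**
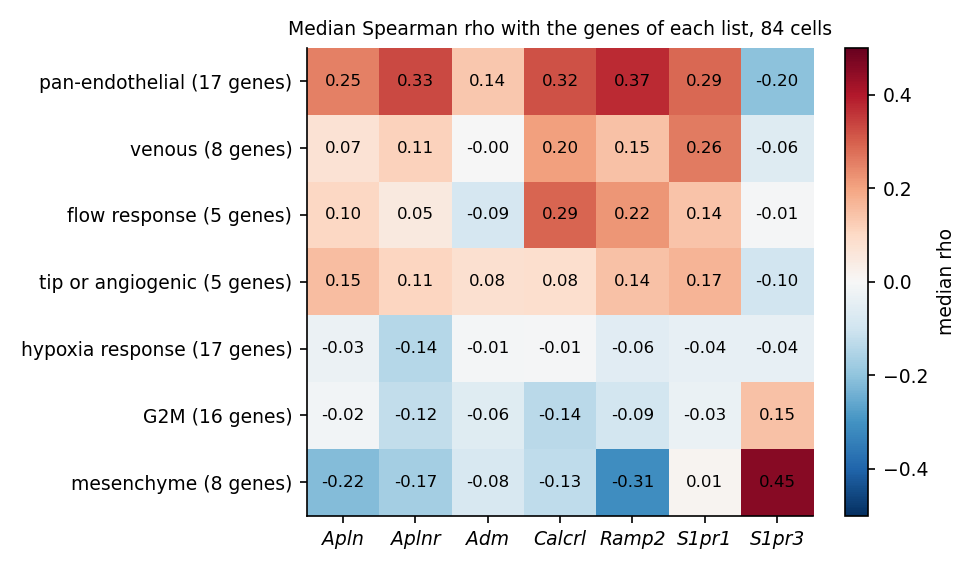
Median Spearman rho over 84 cells between each gene (columns; Ramp3 was detected in too few cells) and the genes of each list (rows), with the value in each cell of the map. The pan-endothelial row is positive for all genes but S1pr3 (-0.20), whose value in the mesenchyme row is 0.45, and the hypoxia row lies between -0.14 and -0.01.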

How the data were processed

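Single cells were captured on a C1 chip, reverse-transcribed with SMARTer chemistry and tagged with Nextera XT, per the labels' protocols. The deposited values are TPM, which the authors scaled to the same total in each cell (column sums 999998 to 1000002). Bowtie 0.12.9, RSEM 1.2.3, CASAVA 1.8.2 and the build mm10 are listed in the submitters' processing notes, without roles. The sources used here give no annotation or settings. Coordinates are from RefSeq on GRCm38.p6, the assembly of mm10, which matched 8 of 8 members. TPM keeps no depth, so precision is limited by the number of cells.

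Values were analysed with Python 3.11.15, NumPy 2.4.6, pandas 2.3.3 and SciPy 1.17.1. A gene was detected at TPM 1, markers were counted at TPM 10, and differences used log2(TPM + 1) over genes detected in at least 5 cells. Spearman's rho used genes detected in at least 17 cells. The genes named beside the members are those of 3 pathway lists, of the marker lists, and the 5 highest and 3 lowest by rho for each member. Counts under independent detection are the product of the 2 detection rates times 84. The calculations of class differences and rho were checked on these values with known changes added, and rho also against SciPy. No cell was left out and no doublet caller was run. The members and lists were chosen with earlier results of these data known. Alternatives changed the detection limit, the pseudocount, the scaling and the cells used.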

Additional observations from a re-analysis of the deposited data

How the results depend on the processing

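Limits: all values describe 84 cells of 1 sample with no named embryo and unknown depth, so the size of differences between embryos is not known. Of 208 values recomputed, 154 stayed within the counting error or the margin set (0.1 for rho, 0.5 log2 units, 1.5 times for a count), 54 moved and 0 of the called differences reversed. The cause of a move was not tested where the setting itself does not give it.

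Detection above TPM 0 was 47.6% for Apln, 95.2% for Aplnr, 36.9% for Adm, 95.2% for S1pr1 and 35.7% for S1pr3. At TPM 10 it was 23.8% for Apln, 95.2% for Calcrl, 11.9% for Adm and 73.8% for S1pr1. Without mesenchyme-marked cells Ramp2 was at 100% and S1pr3 at 5.77%, and 100% of Calcrl cells held Ramp2. Leaving out the cells in the lowest quartile of detected genes, Ramp2 was at 98.4%. In the 69 cells with at least 12 pan-endothelial genes, a setting chosen after seeing the data, Ramp2 was at 100% and S1pr1 at 95.7%. Aplnr was in 100% of Apln cells, and Ramp2 in 100% of Adm cells, at TPM 10 and also without mesenchyme-marked cells. Leaving out those cells brought the median rho to 0.038 for Apln with tip or angiogenic genes, 0.20 for Calcrl with pan-endothelial genes and 0.24 for S1pr3 with mesenchyme genes.

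The members past 1 log2 unit in mesenchyme-marked cells were the same under median-of-ratios scaling and with at least 5 mesenchyme genes required (added after seeing the data). With a pseudocount of 10, S1pr3 (1.29), Ramp2 (-1.25) and Aplnr stayed past 1 unit and Apln was at -0.71. For Prox1 cells the number higher was 0 with a pseudocount of 10 and 0 without mesenchyme-marked cells, where 1 was lower. For cells with at least 3 tip or angiogenic genes it was 0 with a pseudocount of 10, 1 with median-of-ratios scaling (S1pr1) and 0 without mesenchyme-marked cells. A sign changed in 5 of 96 class differences, among them Aplnr in artery-marked cells without mesenchyme-marked cells (-0.31). Another was S1pr1 with at least 5 mesenchyme genes (0.26), where cells with 3 or 4 such genes were counted among the others. The median of all genes moved by over 0.1 in 1 case, cells with at least 3 tip or angiogenic genes with a pseudocount of 10 (-0.13).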

Other observations

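Genes of the G2 and mitosis phases had median rho values of -0.12 with Aplnr, -0.14 with Calcrl and -0.09 with Ramp2, and 0.15 with S1pr3, where 14 of 16 were above 0. Of the hypoxia list, the glucose transporter gene Slc2a1 had the highest rho with 5 members, at 0.43 for Ramp2, 0.36 for Calcrl, 0.35 for Aplnr, 0.27 for Apln and 0.27 for S1pr1, whereas Aldoa was at -0.42 for Aplnr and -0.32 for Calcrl. The nitric oxide synthase gene Nos3 was the flow response gene closest to Apln (0.34), Aplnr (0.38) and Ramp2 (0.33), and the thrombomodulin gene Thbd the one closest to Calcrl (0.39).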
